A study of Mus musculus with 272 samples.

Results

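The genes described here encode ATP-dependent chromatin remodelers, their subunits and bromodomain proteins. They are every symbol of the expression table that begins with Smarca to Smarce, Chd and a digit, Brd and a digit, Brpf, Ino80, Arid1, Arid2, Arid4, Baz1, Baz2 or Actl6, or that is Mta1 to Mta3 or Dpf1 to Dpf3. This rule, which uses names and no measured value, found 56 of the 15854 symbols. By complex they were 18 genes of the BAF (SWI/SNF) complexes, 5 of the ISWI group with its Baz partners, 13 of the CHD and NuRD group, 5 of INO80, the BET genes and 6 partners of acetyltransferase or Sin3 complexes. Smarcad1 and Smarcal1, 2 further SNF2-type ATPases, and 4 other entries (the pseudogenes Smarca5-ps and Smarce1-ps1, and Ino80dos and Brd3os) completed the set. Smarca1 and Actl6b, which the rule would take, were not among the symbols of the table.

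The samples were mouse germinal vesicle (GV) and metaphase II (MII) oocytes, zygotes, embryos of 2, 4 and 8 cells (2C, 4C and 8C), morulae and blastocysts. Each of the 8 stages was represented by 4 transcriptome libraries, each from a pool of 20 oocytes or embryos, and by 3 sucrose gradients, lettered A to C, each loaded with a lysate of about 100 oocytes or embryos in cycloheximide, which holds ribosomes on mRNA. Every gradient was cut into 10 fractions, and polyadenylated RNA of each fraction was amplified and sequenced, giving 240 fraction libraries beside 32 transcriptomes. No stage carried a treatment or an engineered genotype, and strain and age are not given in the sources used here.

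Chromatin remodelers use ATP to slide, evict or exchange nucleosomes. BAF opens regulatory DNA, ISWI and CHD enzymes space nucleosomes, NuRD joins remodeling to histone deacetylation, and INO80 exchanges histone variants. Bromodomains bind acetylated lysines, through which BET proteins link acetylated chromatin to transcription. In the mouse, maternal remodeler mRNAs are stored in the growing oocyte, meet a first wave of embryonic transcription in the late zygote and a major wave at the 2C stage, and are then replaced by embryonic transcripts.

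The transcriptomes held 11.2 to 24.3 M assigned reads and the fractions 0.0102 to 43.2 M, with a median of 18.6 M, and 15 of the 240 fractions held under 1 M. Levels are given as CPM, the read count of a gene scaled so that every library has the same total. A level is therefore a share of polyadenylated RNA, and a change in it cannot be told apart from a change in the total polyadenylated RNA of a pool. Nor can it be told apart from a change in the polyadenylation of the same mRNA, which was not measured. Marker levels followed the labelled stages: 8 oocyte markers summed to between 16015 and 17903 CPM in GV libraries and to between 9.52 and 19.0 CPM in blastocysts, 6 markers of 2C embryos to between 1965 and 2687 CPM in 2C libraries, and 8 blastocyst markers to between 2604 and 3144 CPM in blastocysts. Of 10 cumulus and granulosa markers, 4 were in the table, and they summed to between 39.4 and 68.9 CPM in oocytes and zygotes and to between 6.02 and 32.7 CPM later. Their part in any result was not tested.

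The summed level of the 56 genes was lower in oocytes, zygotes and 2C embryos than from the 4C stage on, although single members such as Smarca2 and Chd9 took the opposite course. The sum was 2049 ± 87.6 CPM in GV oocytes, 2561 ± 320 CPM in MII oocytes, 2257 ± 151 CPM in zygotes and 2587 ± 84.3 CPM in 2C embryos (SD, n = 4 each). It was 5825 ± 446 CPM in 4C embryos, and stayed at 4961 ± 353 CPM in 8C embryos, 4629 ± 175 CPM in morulae and 4717 ± 543 CPM in blastocysts (SD, n = 4 each). The number of members at a mean of 100 CPM or more went from 5 in 2C embryos to 18 in 4C embryos. The median member lay at 21.2 CPM in 2C embryos and 59.0 CPM in 4C embryos, against 7.38 and 5.75 CPM for the median symbol of the table.

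**Figure D1:**
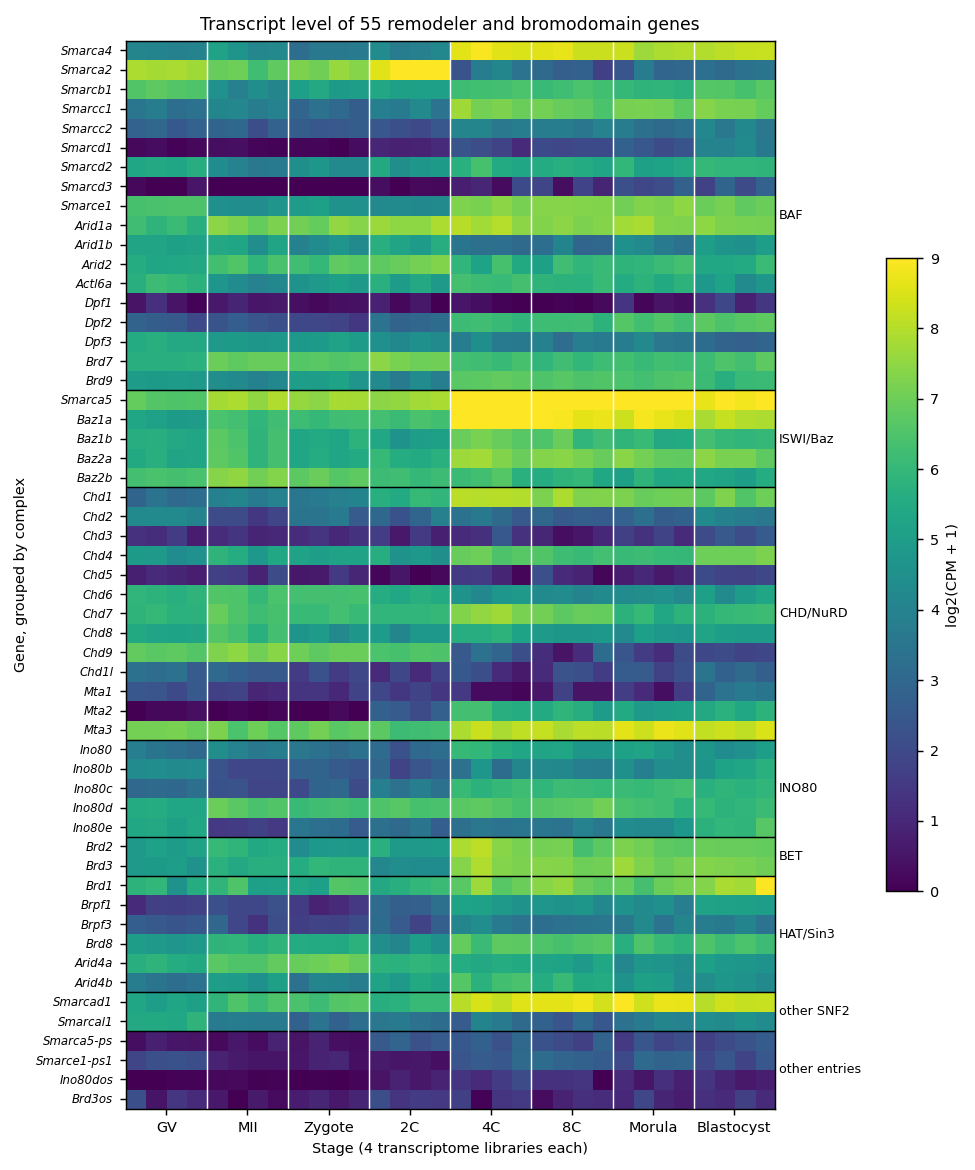
Level of 55 of the 56 genes in each of the 32 transcriptome libraries, as log2(CPM + 1), with genes in rows grouped by complex and libraries in columns grouped by stage. Most rows are brighter from the 4C stage on, while Smarca2 and Chd9 are bright up to the 2C stage and dark after it.

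A gene was called changed where the limma test, adjusted over all 14642 genes that passed a filter of 1 CPM in at least 4 libraries, gave an adjusted p under 0.05 and the change was at least 1 on the log2(CPM + 1) scale. All 56 members passed that filter. Because replicates are pools or gradients of 1 stage and the labels do not say that they came from separate animals, p-values measure the spread between these samples only.

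The step from 2C to 4C held more calls than any other of the 7 steps: 30 of the 56 genes rose and 5 fell. That share of calls was near the background, since 64.8% of all genes tested were called at this step, but the split was not: 31.8% of all genes rose and 32.9% fell, against 53.6% and 8.93% of the members. The median change was 1.12 for the members and 0.02 for all genes. The split was 30 and 5 with quantile normalization, and 32 and 7 in edgeR's test on the recovered reads.

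The other steps held fewer calls. From GV to MII, 8 members rose and 11 fell (background 34.5% called, 9.11% higher and 25.3% lower). This direction depended on the scaling: 23 rose and 8 fell after quantile normalization, which moved the median of all genes from -0.11 to 0.16, and 20 rose and 11 fell in edgeR. From MII to zygote 2 rose and 5 fell (background 10.3%, of which 5.79% higher and 4.48% lower), against 2 and 1 after quantile normalization and 2 and 6 in edgeR. Without the libraries lettered A, left out of every stage with that letter, 3 were called, and without those lettered C, 10.

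From zygote to 2C, 9 rose and 3 fell (background 33.9%, of which 25.2% higher and 8.71% lower). After quantile normalization 4 rose and 9 fell, with the median of all genes moving from 0.37 to -0.08, and edgeR gave 10 and 6. Between 4C and 8C only Chd9 was called, and it fell (background 2.6%, of which 0.451% higher and 2.14% lower). From 8C to morula 2 rose and 1 fell (background 11.9%, of which 8.18% higher and 3.7% lower), and the 2 rises were not called after quantile normalization. From morula to blastocyst 7 rose and none fell (background 26.8%, of which 18.8% higher and 7.97% lower), but quantile normalization gave 4 and 2 and edgeR 3 and 3.

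Among the BAF genes, which encode the SWI/SNF remodelers, 8 of 18 rose and 3 fell from 2C to 4C, to be read against the shares over all genes given above for this step. Both catalytic ATPases were called, in opposite directions. Smarca4, which encodes BRG1, measured 19.1, 12.7, 14 and 17.4 CPM in the 2C libraries and 396, 476, 382 and 355 CPM in the 4C libraries. Smarca2, which encodes BRM, measured 372, 620, 528 and 525 CPM at 2C and 4.08, 13.2, 16.6 and 9.77 CPM at 4C. The groups did not overlap for either gene. Smarca4 rose by 4.59 (SE 0.17, adjusted p = 5.88e-23), a ratio of mean CPM of 25.5, and Smarca2 fell by 5.54 (SE 0.28, adjusted p = 3.68e-19), a ratio of 47.0.

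Over all stages Smarca4 was at 15.4 ± 0.504 CPM in GV, 23.8 ± 8.47 CPM in MII and 10.9 ± 1.66 CPM in zygotes, and at 357 ± 54.4 CPM in 8C, 249 ± 42.5 CPM in morulae and 281 ± 25.0 CPM in blastocysts (SD, n = 4 each). Smarca2 was at 223 ± 12.8, 108 ± 22.8 and 159 ± 26.8 CPM in GV, MII and zygotes before its peak at 2C, and at 5.34 ± 2.25, 7.65 ± 3.70 and 8.94 ± 0.97 CPM in 8C, morula and blastocyst (SD, n = 4 each). Per kilobase of transcript, the Smarca4 level was 0.0302 of that of Smarca2 in 2C embryos (range over libraries 0.0189 to 0.0472). At 4C it was 44.3 times that of Smarca2 (range 21.2 to 89.3), and in blastocysts 29.0 times (range 25.9 to 32.7). The order of the ATPase mRNAs was thus opposite before and after the 2C to 4C step in every library.

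**Figure D2:**
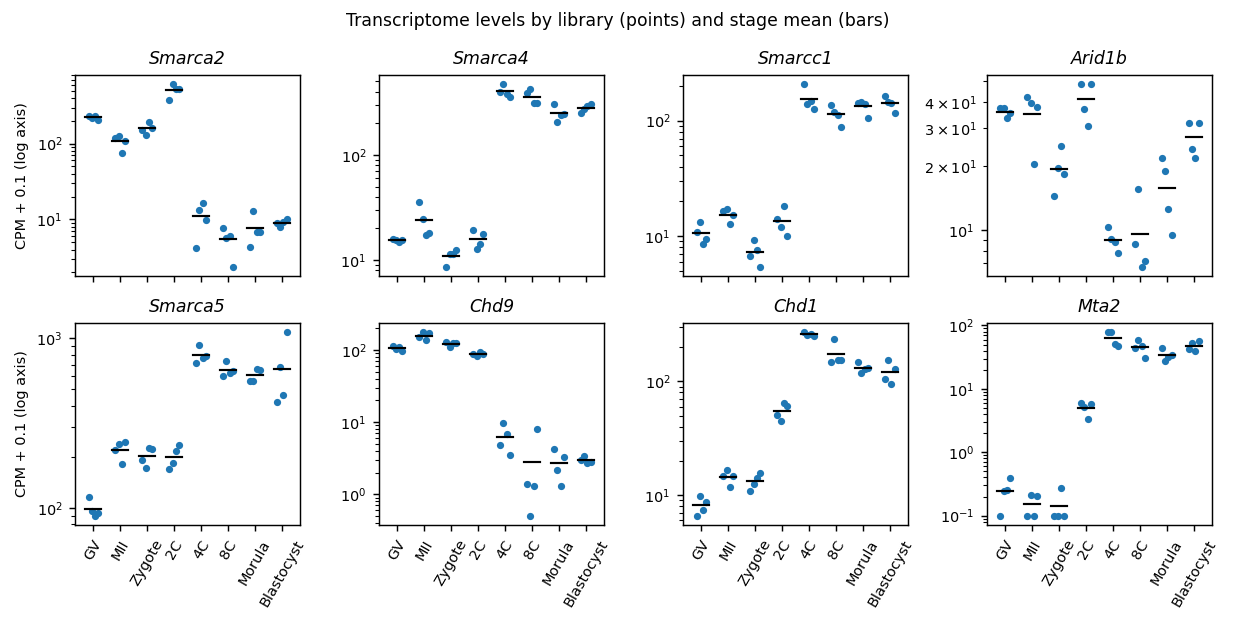
Level of Smarca2, Smarca4, Smarcc1, Arid1b, Smarca5, Chd9, Chd1 and Mta2 by stage on a log axis of CPM + 0.1, with 1 point per transcriptome library and bars at the stage means. Smarca4 sits between 355 and 476 CPM at 4C against 12.7 to 19.1 CPM at 2C, while Smarca2 moves from above 372 CPM to below 17 CPM.

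The core subunits followed different courses. Smarcc1, a scaffold subunit, went from 9.87 to 17.9 CPM over the 2C libraries to 126 to 209 CPM over the 4C libraries, a rise of 3.44 (SE 0.19, adjusted p = 2.21e-18). Smarce1, which carries an HMG DNA-binding domain, rose by 3.0 at that step, from 18.1 ± 0.61 to 152 ± 13.9 CPM. Dpf2, which encodes a histone-reading subunit of canonical BAF, rose by 2.99, from 7.69 ± 1.53 to 67.7 ± 6.72 CPM, and Brd9, which marks the noncanonical complex, by 2.70, from 16.0 ± 3.58 to 107 ± 3.85 CPM (SD, n = 4 for each mean). These rises left no overlap between the stages.

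Of the ARID subunits that define the BAF variants, Arid1a was above 100 CPM at every stage after GV and was not called from 2C to 4C. Arid1b fell there by 2.06, from 41.0 ± 8.79 to 8.94 ± 1.08 CPM, and Arid2, of the PBAF variant, by 1.29, from 131 ± 21.1 to 55.0 ± 20.1 CPM (SD, n = 4). Smarcb1, a core subunit, had its sharpest change at maturation: 92.6, 108, 94.5 and 91.3 CPM in GV and 22.7, 14.1, 20.9 and 16.2 CPM in MII, a fall by 2.35 (adjusted p = 1.88e-16). Brd7, the bromodomain subunit of PBAF, rose by 1.22 at that step, from 50.3 ± 1.71 to 119 ± 7.34 CPM. Its libraries did not overlap. Actl6a and Smarcd2 fell with Smarcb1 at maturation, by 1.58 and 1.48, as did Smarce1, by 1.95, and Smarcc2 was at means between 3.89 and 14.1 CPM throughout.

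Late in the series Smarcd1, of the SMARCD subunits, rose from morula to blastocyst by 1.57, from between 3.29 and 5.92 to between 11.3 and 18.3 CPM. Smarcd3 rose by 1.00 from 8C to morula, from 1.60 ± 1.19 to 3.89 ± 1.38 CPM, and lost its call in 7 of its alternatives, among them leaving out the libraries lettered B or D. Smarcd2 was the most abundant of these genes per kilobase at every stage, at 21.7 CPM per kilobase in blastocysts against 4.54 for Smarcd1 and 2.62 for Smarcd3. Among the plant homeodomain subunits the order per kilobase changed: Dpf3 led in GV, at 14.4 against 2.01 for Dpf2, and Dpf2 led in blastocysts, at 41.9 against 2.14 for Dpf3. Dpf1 stayed below 2 CPM on average at all 8 stages.

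In the ISWI group, whose enzymes space nucleosomes, 4 of 5 genes rose from 2C to 4C. The shares over all genes at this step are given above. Smarca5, which encodes the ATPase SNF2H, had the highest mean per kilobase of all members at 4C, 130.4 CPM per kilobase, and its libraries measured 718, 918, 766 and 787 CPM, against 170, 184, 216 and 233 CPM at 2C. The rise was 1.99 (adjusted p = 1.71e-12), and its mean had also risen from 98.7 ± 11.3 CPM in GV to 220 ± 28.3 CPM in MII (change 1.15). It was 202 ± 26.5 CPM in zygotes, 651 ± 58.0 CPM in 8C, 605 ± 54.1 CPM in morulae and 661 ± 304 CPM in blastocysts (SD, n = 4 each). The spread in blastocysts was wide, with libraries between 419 and 1084 CPM.

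Baz1a, which pairs with SNF2H in the ACF complex, rose by 2.78 from 2C to 4C, from 77.1 ± 6.17 to 536 ± 33.3 CPM. Baz1b and Baz2a, partners in other ISWI complexes, rose by 1.88 and 1.72. Baz2b was not called at that step; its highest mean was in MII oocytes, at 160 ± 19.2 CPM, and its lowest in blastocysts, at 38.7 ± 6.07 CPM (SD, n = 4).

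In the CHD and NuRD group 5 of 13 genes rose and 2 fell from 2C to 4C. Whether these shares differ from those over all genes, given above, was not tested. Chd1, which spaces nucleosomes over transcribed genes, rose at 2 steps in a row: from 10.7 to 15.6 CPM in zygotes to between 44.5 and 64.1 CPM at 2C (change 1.97, adjusted p = 1.55e-12), and to between 251 and 269 CPM at 4C (change 2.24, adjusted p = 1.4e-14). The ranges of the 3 stages did not touch. Chd1 had been at 8.01 ± 1.38 CPM in GV and 14.4 ± 1.95 CPM in MII, and was at 173 ± 41.5, 131 ± 12.7 and 120 ± 26.1 CPM in 8C, morula and blastocyst (SD, n = 4 each).

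The NuRD ATPases differed in level. Chd4 was at 24.7 ± 4.14, 42.4 ± 12.3, 34.4 ± 2.05 and 29.6 ± 12 CPM from GV to 2C, and at 110 ± 18.6, 77.5 ± 12, 66.3 ± 3.51 and 134 ± 10.4 CPM from 4C to blastocyst (SD, n = 4 each). It rose at 2C to 4C by 1.91 and at morula to blastocyst by 1.00. Chd3 had means between 0.667 CPM in 8C and 4.03 CPM in blastocysts and was called at no step. Per kilobase, Chd4 lay at 16.8 and Chd3 at 0.294 CPM in 4C embryos.

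Mta2, a NuRD scaffold, was close to absent before the 2C stage. The 4 zygote libraries held 0, 0, 0.175 and 0 CPM, of which the third was 3 reads, while the 2C libraries held 5.90, 5.06, 3.22 and 5.74 CPM and the 4C libraries 77.5, 77.8, 50.3 and 46.6 CPM. The changes were 2.5 (adjusted p = 1.6e-12) and 3.41 (adjusted p = 7.66e-17) on the log2(CPM + 1) scale, of which the first depends on the pseudocount. Mta3 had been present throughout, at 82.1 ± 16.5 CPM in 2C embryos, its lowest mean, and 379 ± 42.8 CPM in morulae, its highest (SD, n = 4). Mta1 rose from between 0.249 and 2.13 CPM in morulae to between 6.43 and 12.5 CPM in blastocysts (change 2.24).

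Chd9 took the opposite course, being above 80 CPM in every library up to 2C. Of the 2 genes of this group called lower from 2C to 4C, it fell more. It measured 87.2, 81.8, 94.1 and 88.4 CPM at 2C, 4.64, 9.60, 6.64 and 3.44 CPM at 4C, and 1.27, 0.406, 1.21 and 7.96 CPM at 8C. The first fall was by 3.72 (adjusted p = 4.83e-13). The second was by 1.25 (adjusted p = 0.0104), with overlapping groups, and was not called in 6 of its 10 alternatives, among them leaving out the libraries lettered A, B or C; without those lettered B the change was -0.70. Chd2 fell by 2.37 from GV to MII, from between 15.5 and 18.9 CPM to between 1.78 and 3.12 CPM, and rose by 1.45 from MII to zygote. Chd8, an enzyme that binds beta-catenin and CTCF, fell by 1.60 at fertilization, from 76.6 ± 17.9 to 24.4 ± 4.96 CPM (SD, n = 4). Of the remaining CHD genes Chd7 rose from 60.7 ± 1.68 to 173 ± 28.0 CPM at 2C to 4C and fell by 1.13 from 8C to morula. Chd6 had its highest mean in MII, at 82.9 CPM, and its lowest in 8C, at 17.7 CPM. Chd5, at 0.184 to 2.73 CPM, and Chd1l, at 1.88 to 7.90 CPM, were low at every stage.

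The INO80 genes split at maturation: Ino80b, Ino80c and Ino80e fell from GV to MII and Ino80d rose. Ino80e measured 40.3, 42.3, 33.3 and 41.3 CPM in GV and 1.84, 2.01, 2.44 and 1.85 CPM in MII, a fall by 3.73 (SE 0.21, adjusted p = 9.96e-18) and a ratio of 19.3. It rose again by 1.54 in zygotes and by 1.65 from morula to blastocyst, where the libraries ranged from 53.8 to 99.7 CPM. The ATPase gene Ino80 itself was at 10.1 ± 2.62, 15.1 ± 4.21, 9.26 ± 1.33 and 6.95 ± 2.17 CPM from GV to 2C. It rose by 2.78 to 53.0 ± 12.4 CPM at 4C, and was at 32.4 ± 7.14, 30.4 ± 7.26 and 25.2 ± 5.36 CPM afterwards (SD, n = 4 each). Ino80c and Ino80b rose with it, by 2.39 and 1.36.

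The BET genes Brd2 and Brd3, whose proteins carry tandem bromodomains, rose from 2C to 4C. Brd2 went from 34.2 ± 11.2 to 206 ± 60.1 CPM (change 2.55) and Brd3 from 19.3 ± 1.59 to 178 ± 41.7 CPM (change 3.12). Per kilobase of transcript the 4C level was 44.2 CPM for Brd2 and 33.7 CPM for Brd3. Before 2C, Brd2 was at 32.2 ± 3.41, 53.1 ± 10.0 and 25.6 ± 4.02 CPM and Brd3 at 28.3 ± 3.32, 48.4 ± 4.67 and 55.2 ± 6.46 CPM in GV, MII and zygotes. After 4C, Brd2 was at 116 ± 29.6, 124 ± 21.9 and 120 ± 3.18 CPM and Brd3 at 146 ± 18, 155 ± 35.9 and 148 ± 12.9 CPM in 8C, morulae and blastocysts. Neither was called after 4C, and the larger change there was that of Brd2 between 4C and 8C, at -0.81 (adjusted p = 0.00951).

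Earlier, these genes parted: Brd2 fell by 1.02 from MII to zygote, and Brd3 fell by 1.46 from zygote to 2C. The Brd2 call was lost without the libraries lettered A (change -0.81) and after quantile normalization. Of the partners of acetyltransferase and Sin3 complexes, Brpf1, Brd8, Brd1, Arid4b and Brpf3 rose from 2C to 4C. Brpf1, a scaffold of the MOZ acetyltransferases, had already risen by 1.72 from zygote to 2C. Arid4b, a Sin3 subunit, rose by 1.41 at maturation, fell by 1.06 in zygotes and rose by 1.33 at 2C. Its fall was not called without the libraries lettered A or D, or after quantile normalization. Its paralog Arid4a fell by 1.18 at 2C.

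Smarcad1, a remodeler that acts on repaired and silenced chromatin, rose from 58.4 ± 9.90 CPM at 2C to 319 ± 53.9 CPM at 4C (change 2.43) and was highest in morulae, at 414 ± 66.5 CPM. Smarcal1, which remodels stalled replication forks, fell from 45.4 ± 7.46 CPM in GV to 12.2 ± 0.574 CPM in MII, by 1.81. The pseudogenes, Ino80dos and Brd3os, which the annotation gives a coding sequence of 252 bases, were low, with means up to 6.38 CPM. The pseudogenes Smarca5-ps and Smarce1-ps1 are near-copies of their parent genes, and Ino80dos lies antisense to Ino80d and Brd3os beside Brd3. How reads were shared among them is not given in the sources used here, so that the 2C rise of Smarca5-ps (change 2.06, mean 4.98 ± 1.19 CPM at 2C) is uncertain.

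The gradients ask which of these mRNAs lay with ribosomes. Fractions carry numbers only in the labels. Those numbered 6 to 10 were treated as heavy, the end at which polysomes are conventionally collected, and those numbered 1 to 5 as light. The level of a side in a gradient is its mean CPM over 5 fractions, in which each fraction counts equally and is scaled to its own total, so a difference between sides is a shift in composition and not in amount.

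In MII oocytes and zygotes the members leaned to the heavy side, and in blastocysts to the light side. In MII, 15 of the 47 members tested were higher on the heavy side and 2 on the light side (background 19.5% called, 12.7% heavy and 6.81% light). In zygotes 14 of 48 were heavy and 2 light (background 18.5%, of which 13.2% heavy and 5.23% light). In blastocysts 4 of 50 were heavy and 11 light (background 21.7%, of which 9.96% heavy and 11.8% light). The median difference of heavy minus light was 0.68, 0.63 and -0.48 for the members tested in MII, zygotes and blastocysts, against -0.07, -0.05 and -0.06 for all genes tested there. Only genes at 1 CPM or more in at least 3 of the 6 side means were tested, so these are not all members.

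With 1 gradient left out the count in MII was 11 without A or B and 10 without C. In zygotes it was 9 without A, 11 without B and 7 without C, and in blastocysts 11 without A and 9 without B or C. With fraction 1 left out, a setting chosen after seeing the data, 22 of 48 were called in MII (background 20.2%), 19 of 49 in zygotes (background 21.2%) and 9 of 47 in blastocysts (background 14.6%). The blastocyst calls were then 4 heavy and 5 light (background 8.11% and 6.52%), so that the light calls went from 11 to 5, and the median difference of the members was -0.30.

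**Figure D3:**
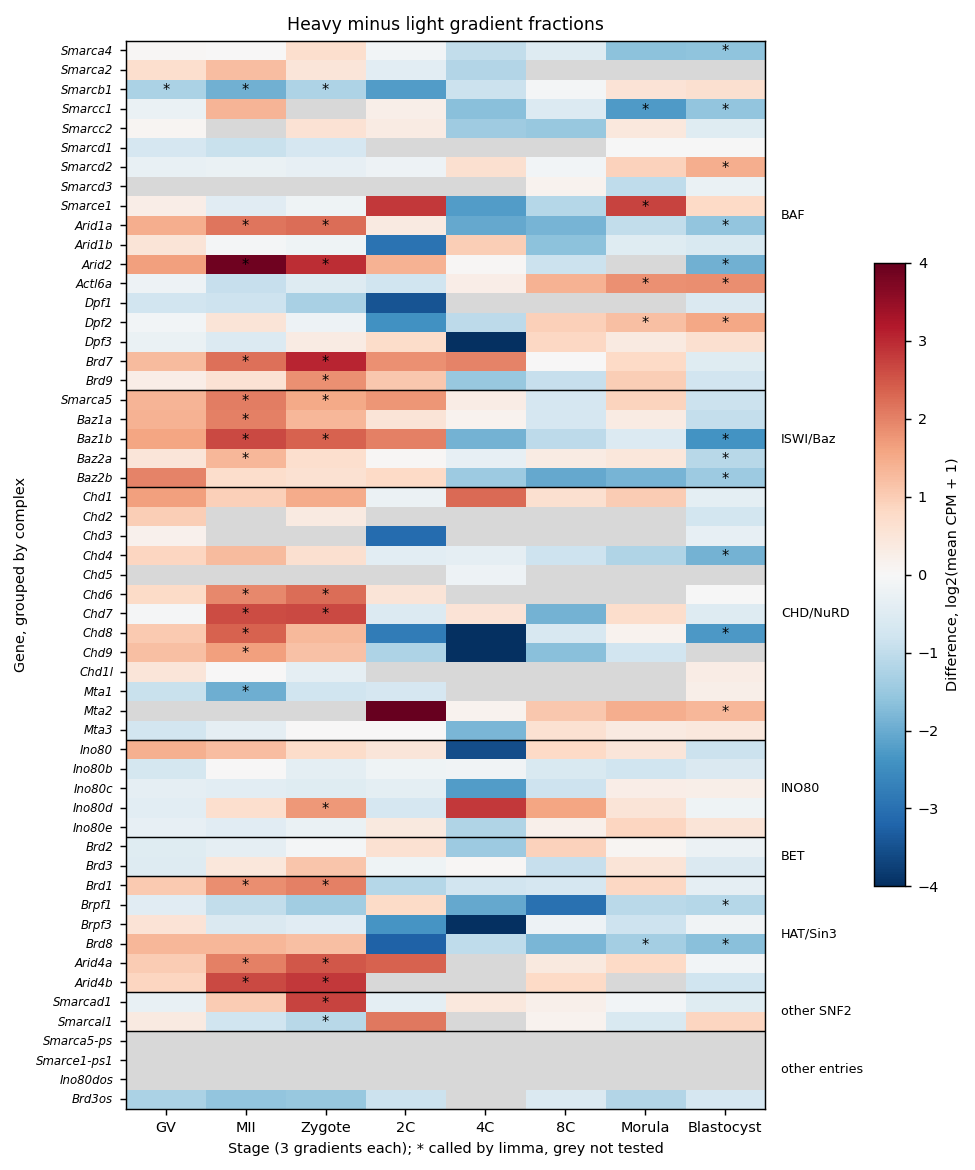
Heavy minus light difference, as log2(mean CPM over fractions 6 to 10 + 1) less the same over fractions 1 to 5, for 55 of the 56 genes by stage, with genes grouped by complex, genes that were not tested in grey and called differences marked with an asterisk. Smarca5 and Baz1b are red (heavy) and marked in MII oocytes and zygotes, and Baz1b is blue (light) and marked in blastocysts.

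Arid2 had the largest heavy shift in MII. Its heavy side measured 53.1, 30.8 and 104 CPM in gradients A, B and C and its light side 1.87, 4.77 and 2.38 CPM, a difference of 3.89 (SE 0.52, adjusted p = 0.000548). In zygotes the sides were 28.3, 38.9 and 28.8 against 1.97, 3.35 and 4.97 CPM (difference 2.94). In blastocysts the order was opposite, with 1.74, 0.5 and 0.781 CPM on the heavy side and 3.70, 9.35 and 7.38 CPM on the light side (difference -1.93, adjusted p = 0.00955). The sides did not overlap at any of these 3 stages, though the blastocyst difference was -1.41 with an adjusted p of 0.0831 when fraction 1 was left out, and it was not called without gradient B or C.

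Baz1b, a partner of SNF2H, showed the same contrast at higher levels. In MII its heavy side held 96.7, 76.0 and 71.8 CPM and its light side 19.9, 10.9 and 8.38 CPM (difference 2.63, adjusted p = 0.000848). In blastocysts its heavy side held 2.16, 1.65 and 5.13 CPM and its light side 24.7, 15.0 and 17.5 CPM (difference -2.40, adjusted p = 0.00227). Chd8 went from 46.5, 55.4 and 30.7 CPM heavy against 12.2, 6.68 and 5.31 CPM light in MII (difference 2.35) to 1.2, 0.789 and 0.175 CPM heavy against 6.09, 7.02 and 8.73 CPM light in blastocysts (difference -2.30). For both genes no gradient of 1 side reached the values of the other.

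Other large shifts in MII and zygotes were those of Arid4b, at 2.63 (not called without gradient A or C) and 2.83 (not called without A), and, in zygotes, of Brd7, at 3.05, with 54.5, 61.0 and 157 CPM heavy against 10.3, 7.71 and 8.65 CPM light. Of the 15 heavy members in MII, 11 were also called heavy in zygotes, which is 73.3% of the 15 and 78.6% of the 14 in zygotes. The same overlap over all genes tested was not computed, so it is not shown to be particular to these genes. They included Arid1a, Arid2, Arid4a, Arid4b, Baz1b, Brd1, Brd7, Chd6, Chd7 and Smarca5.

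A smaller group lay on the light side in oocytes and zygotes. Smarcb1, with a coding sequence of 1155 bases against 5484 in Arid2, measured 42.0, 68.3 and 31.5 CPM heavy against 153, 147 and 229 CPM light in MII (difference -1.92, adjusted p = 0.00236), and 189, 217 and 101 against 307, 524 and 348 CPM in zygotes (difference -1.25). Mta1 was light in MII, at -1.95, and Smarcal1 in zygotes, at -1.12. The zygote calls of Smarcb1 and Smarcal1 were lost whichever gradient was left out, and the MII call of Mta1 without A or C, with a pseudocount of 0.1 or with no filter.

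In blastocysts the heavy members were Actl6a, an actin-like subunit, Dpf2, Smarcd2 and Mta2. Actl6a measured 89.7, 87.4 and 126 CPM heavy and 23.9, 30.7 and 25.2 CPM light (difference 1.87, adjusted p = 0.000346), and Dpf2 measured 357, 569 and 401 CPM heavy and 117, 181 and 152 CPM light (difference 1.55, adjusted p = 0.000615). Smarcd2 differed by 1.46, a call lost without gradient B. Smarca4, whose transcriptome level was high at this stage, was on the light side, with 9.57, 9.66 and 12.5 CPM heavy against 38.8, 31.6 and 31.4 CPM light (difference -1.60, adjusted p = 0.0029), as was Smarcc1 (difference -1.58). Chd4, Brd8, Arid1a, Baz2a, Baz2b and Brpf1 were light as well, but of these 6 only Chd4 was called with fraction 1 left out.

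**Figure D4:**
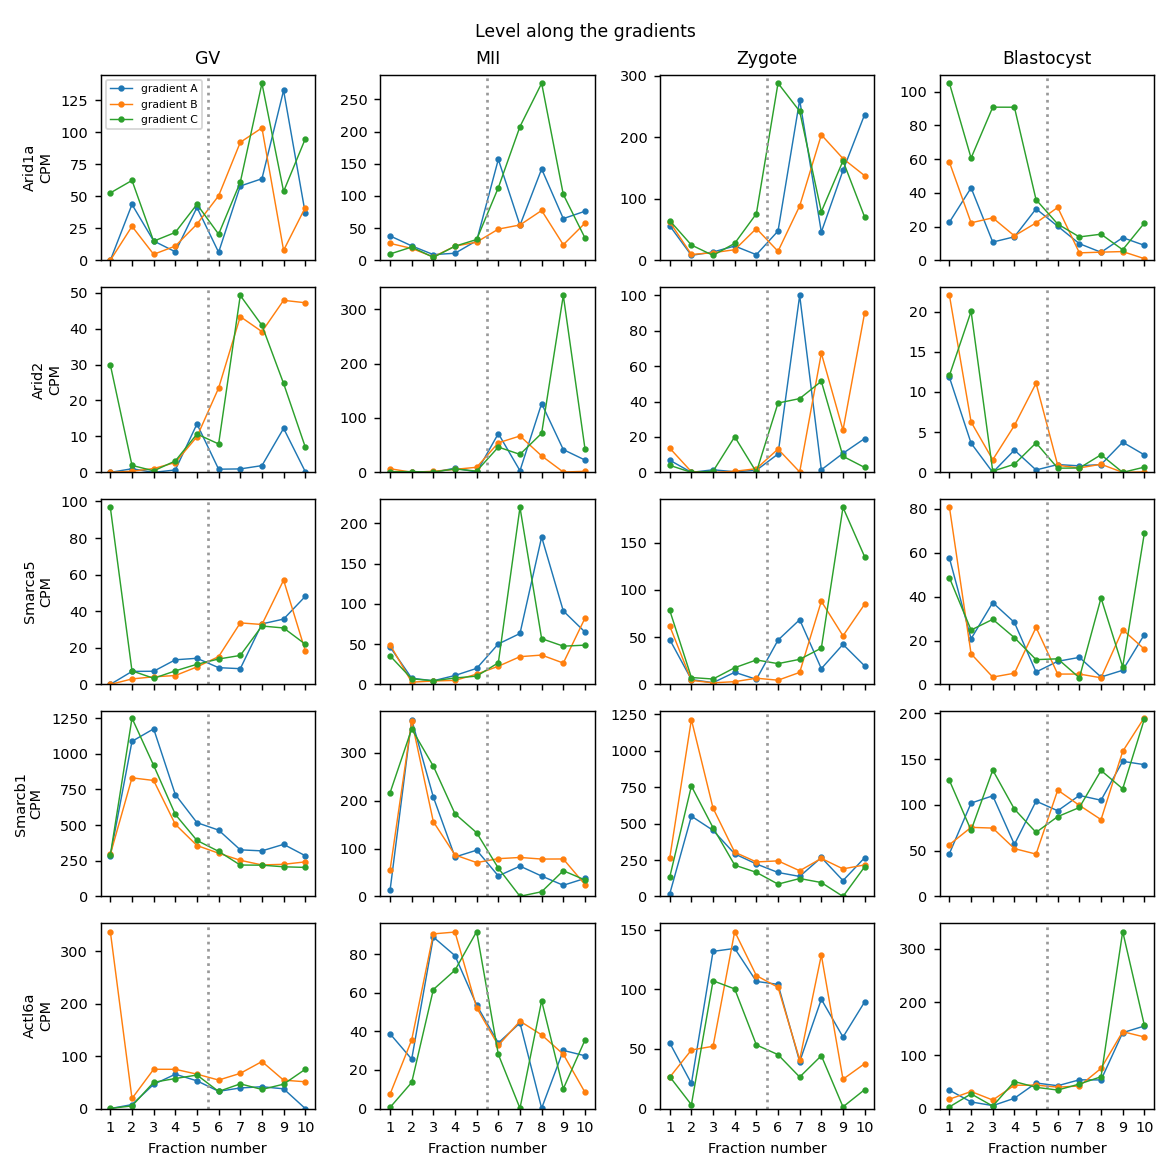
Level in CPM along fractions 1 to 10 for Arid1a, Arid2, Smarca5, Smarcb1 and Actl6a in GV, MII, zygote and blastocyst, with 1 line per gradient A to C, each panel on its own axis from 0 and a dotted line between the light and heavy sides. Arid2 lies to the right of that line in MII (30.8 to 104 CPM on the heavy side), and Smarcb1 has its GV peak in fraction 2, at 831 to 1249 CPM.

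The change of position between MII and blastocyst was tested directly, on the same gradients, as the difference between the 2 heavy minus light values in 1 fit over both stages, a test added after the data were seen. It called 24 of 52 members, 20 with a lower heavy minus light value in blastocysts and 4 with a higher one (background 23.2% called, 13.4% lower and 9.79% higher). The median was -1.11 for the members and -0.00 for all genes. The largest falls were those of Arid2 at -5.82 (SE 0.68, adjusted p = 0.000186), Baz1b at -5.03 (SE 0.55) and Chd8 at -4.65 (SE 0.54). The 4 members that moved the other way were Actl6a at 2.79, Smarcb1 at 2.56, Mta1 at 2.17 (not called without gradient A or C, with the gradient as a block (limma adjusted p = 0.0662), with a pseudocount of 0.1 or with no filter) and Smarcd2 at 1.72. All 5 ISWI and Baz genes were among the 20. With fraction 1 left out the same numbers, 20 and 4, were called (background 21.1%), and without gradient A, B or C the count was 14, 12 or 15. With the spread estimated from all 8 stages together it was 5.

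In GV oocytes the result depended on fraction 1, whose GV libraries included some of the shallowest, at 0.0102 M reads in 1 of them. With it, only Smarcb1 of 50 members was called, on the light side (background 2.45%, of which 1.88% heavy and 0.567% light; lost whichever gradient was left out), with 352, 249 and 233 CPM heavy against 756, 560 and 685 CPM light. With the gradient as a block the count was 4. Without fraction 1, 14 of 49 members were heavy and Smarcb1 was light (background 15.4% in either direction). The heavy ones were led by Chd6 at 2.15, Chd8 at 2.13 and Chd1 at 2.10, and the others included Chd7, Chd9, Baz2a, Baz2b, Brd1, Brd7, Brd8, Smarca5, Smarcad1 and Arid1a.

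Gradients of 2C, 4C and 8C embryos gave no call among 47, 41 and 44 members (backgrounds 1.9%, 0% and 2.55%), and 7, 5 and 6 members had an unadjusted limma p under 0.05. The share of all genes at that unadjusted p is not given here, so these counts are not a result about the members. The replicate gradients of these stages were far apart. The median coefficient of variation of a member's heavy level over the 3 gradients was 80.1%, 97.0% and 79.6% at 2C, 4C and 8C, against 30.9% in GV, 35.1% in MII, 40.6% in zygotes, 37.6% in morulae and 21.8% in blastocysts. A gradient under 0.5 CPM while the other two were at 5 CPM or more occurred in 4 of 72 cases at 2C, 8 of 62 at 4C, 6 of 85 at 8C and 2 of 81 in morulae, and in none at the remaining stages. Smarca4 was an example at 4C, with heavy levels of 2.10, 15.9 and 138 CPM.

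In morulae 3 of 43 members were heavy and 2 light (background 14.7% in either direction). Smarce1 measured 21.5, 28.9 and 27.5 CPM heavy against 0.109, 4.69 and 10.0 CPM light (difference 2.70), Actl6a differed by 1.83 and Dpf2 by 1.19, and Smarcc1 was light, at 1.89, 2.67 and 5.61 against 19.5, 11.8 and 28.4 CPM (difference -2.26). Brd8, also called light at -1.37, was at 0.23 with fraction 1 left out. At most 1 of the 5 was called with any 1 gradient left out.

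Position went with the length of the coding sequence, which in these genes is long: the median was 3312 bases for the members with a coding transcript in the GENCODE mouse annotation and 1395 bases for all genes of the table. Spearman's rho between coding length and heavy minus light was 0.66 over 50 members in GV, 0.66 over 47 in MII and 0.56 over 48 in zygotes. It was -0.04, 0.02, -0.40 and -0.27 in 2C, 4C, 8C and morulae and -0.60 over 50 in blastocysts. Over all genes the same values were 0.18, 0.21 and 0.19 up to the zygote, and -0.07, -0.21, -0.20, -0.18 and -0.19 afterwards. These are descriptions across genes of the same libraries, which are not independent replicates. Without fraction 1 the members' rho was 0.72, 0.65 and 0.59 up to the zygote and -0.51 in blastocysts. Length and its part in the counts above were not tested.

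**Figure D5:**
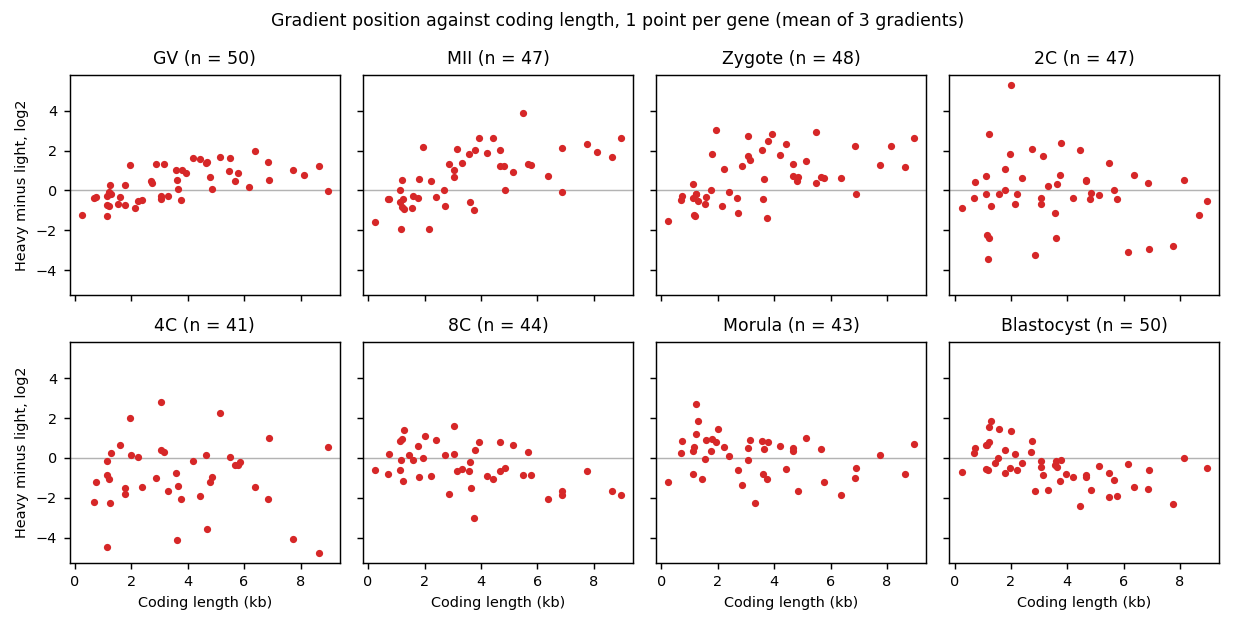
Heavy minus light difference on the log2 scale, as the mean of 3 gradients, against coding length in kilobases, with 1 point per tested member and 1 panel per stage. Points rise to the right in GV, MII and zygote (rho 0.66, 0.66 and 0.56) and fall to the right in blastocysts (rho -0.60).

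Maternal mRNAs that gain ribosomes during oocyte maturation often carry a cytoplasmic polyadenylation element, to which CPEB1 binds, near the end of the 3′UTR. The letters TTTTAT or TTTTAAT were searched on the transcript strand only, in the last 100 bases of each coding transcript whose 3′UTR is at least that long (GENCODE vM21, GRCm38). They were present in 10 of 51 members (19.6%) and in 18.9% of 12421 genes of the table. Of the 15 members on the heavy side in MII, 3 held them. Their sites are shown because these are the MII-heavy members with the letters, written 5′ to 3′ with the match in capitals and its flanks in lower case.
Arid4a: ggatggttgtatTTTTATgtattttttaaa
Chd7: tagtaatgatgcTTTTAATaaaagtgaccc
Chd9: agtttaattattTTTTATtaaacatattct
The matches began 45, 35 and 24 bases before the transcript end. Arid2, Baz1b and Arid4b, the members with the largest heavy shifts in MII, had no match in this window. A match is a description of letters and not of binding.

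Between stages, the heavy side itself gave fewer calls than the transcriptome. From GV to MII 4 of 49 members rose and 5 fell on the heavy side (background 22.5%, of which 6.23% higher and 16.2% lower). Ino80e fell by 2.81, Smarcb1 by 2.58, from 352, 249 and 233 CPM to 42.0, 68.3 and 31.5 CPM, and Smarcal1 by 2.22. Brd1, a scaffold of HBO1 and MOZ acetyltransferases, rose by 1.67, Baz1b by 1.52 and Chd7 by 1.43. The Baz1b call was lost without gradient A (change 0.83), B or C, and that of Chd7 without A or C. Without gradient A the count was 4, and without C it was 5. From MII to zygote Ino80e and Smarcb1 rose again, by 2.25 and 1.82 (2 of 48, background 6.93%, of which 4.45% higher and 2.48% lower), and neither was called without gradient A or B.

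From zygote to 2C 1 of 46 members rose on the heavy side and 3 fell (background 18.1%, of which 4.68% higher and 13.4% lower). Mta2 rose, from 0.0476, 0 and 0.151 CPM to 95.3, 26.1 and 70.9 CPM, and no gradient overlapped. The 2C light side held 1.33, 0.0752 and 0.200 CPM of it, so that the heavy side made up 99.4% ± 0.632 (SD, n = 3) of its heavy plus light level. Because each fraction is scaled to its own total, this is not a share of its mRNA amount. Arid4b fell by 3.33, Brd8 by 3.01 and Dpf1 by 2.32. The Brd8 call (limma adjusted p = 0.0498) was lost in 8 of its 9 alternatives, among them leaving out any gradient. That of Arid4b was lost in 5 of 9, among them leaving out gradient A or C. Dpf1 had no read in the heavy 2C fractions, where its fitted change depends on the pseudocount. Without gradient A none of the 4 was called.

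From 2C to 4C 3 of 39 members rose and 3 fell (background 29.2%, of which 11.6% higher and 17.5% lower), none of them called without gradient B or C. Smarcad1 went from 0, 0.868 and 22.2 CPM to 200, 330 and 155 CPM (change 5.96), Chd1 from 1.23, 0 and 9.91 to 139, 44.7 and 48.1 CPM (change 4.55), and Brd8 rose by 3.40. Smarcal1 went from 31.3, 76.5 and 141 CPM to 0.0254, 0 and 0 CPM, which was 1 read, and Chd6 from 15.4, 15.3 and 6.60 CPM to no read. Arid4a went from 12.7, 22.0 and 3.43 CPM to 0.0610, 0 and 0.0625 CPM. Each of these 3 genes still had a transcriptome mean above 10 CPM at 4C.

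From 4C to 8C no gene of the table and no member was called, with 892 genes and 2 of 38 members at an unadjusted limma p under 0.05. From 8C to morula Smarcd1 rose by 2.23 and Ino80e by 1.58 (2 of 44, background 14.2%, of which 9.11% higher and 5.12% lower), and leaving out any gradient ended both calls. From morula to blastocyst 0 of 47 members were called (background 1.25%, of which 0.634% higher and 0.616% lower), with 7 at an unadjusted limma p under 0.05. For neither step is the share of all genes at that unadjusted p given here, so these counts are not a result about the members.

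The change of the heavy side beyond that of the transcriptome, tested as an interaction, is the change in mean CPM over fractions 6 to 10 less the change in transcriptome CPM, both on the log2(CPM + 1) scale and each scaled to its own total. The backgrounds given for this test are shares of all genes called in either direction. From GV to MII 5 of 52 members gained and 3 lost (background 24.8%). Ino80b gained 3.24, Brd1 1.5 and Smarca2 1.27, and Chd1 lost 1.79, Smarcad1 1.74 and Ino80 1.73. Without gradient B or C the count was 5, Smarcad1 being at -0.91 without B and Chd1 at -1.19 without C. The Brd1 call was lost without A or C, those of Smarca2 and Ino80 without C, and that of Chd1 without B or C. From MII to zygote 5 of 51 gained and none lost (background 9.24%), led by Arid1b at 2.17, Ino80c at 1.75 and Chd8 at 1.39. Without gradient A 2 were called. The Ino80c call was lost without A or B and that of Chd8 without A or C, and both with a pseudocount of 0.1.

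From zygote to 2C 1 of 53 members gained and 11 lost (background 25.3%). The median over members was -1.04, close to that of all genes, -1.09. Arid4b lost 4.66, Brpf3 3.89 and Chd1 3.59, so that the transcriptome rise of Chd1 at 2C was not matched on the heavy side, and Mta2 gained 3.25. From 2C to 4C 6 of 54 lost and none gained (background 15.3%), with medians of -1.17 for members and -0.22 for all genes. Smarce1 lost 6.29, as its transcriptome rose while its heavy side went from 35.2, 23.5 and 22.1 CPM to 0.273, 1.86 and 5.03 CPM. Smarcal1 lost 6.06 and Arid4a 3.11. The count was 11 without gradient A or C.

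Smarca4, with the largest transcriptome rise at 2C to 4C, did not pass this test: its heavy side went from 0.563, 52.5 and 34.5 CPM to 2.10, 15.9 and 138 CPM, and the interaction was -4.16 (SE 1.73, adjusted p = 0.133). From 4C to 8C only Brpf3 was called, with a gain of 3.68 (1 of 55, background 3.12%; lost without gradient A or B), and from 8C to morula only Smarcd1, with a gain of 1.80 (1 of 56, background 7.47%; lost whichever gradient was left out). From morula to blastocyst 2 of 56 gained and 6 lost (background 11.8%). Dpf3 gained 1.41 and Actl6a 1.36, and Ino80e lost 1.76, Chd7 1.72 and Brd1 1.59. The Dpf3 call was lost whichever gradient was left out, those of Actl6a and Brd1 without B or C, and that of Chd7 without A or C. With a pseudocount of 0.1 Dpf3 and Brd1 were not called either. Without gradient B the count was 5 and without C it was 2.

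A list of 63 other remodeler, NuRD, INO80, BAF and bromodomain genes outside the naming rule was chosen as the pathway's other genes, with earlier results of these data known. From 2C to 4C 29 of the 63 rose and 13 fell (background 31.8% higher and 32.9% lower). From GV to MII 20 rose and 7 fell (background 9.11% and 25.3%), and from zygote to 2C 16 rose and 6 fell (background 25.2% and 8.71%). At the remaining steps from MII to zygote, 4C to 8C, 8C to morula and morula to blastocyst, 1, 0, 1 and 4 rose and 1, 1, 1 and 4 fell (background 5.79%, 0.451%, 8.18% and 18.8% higher and 4.48%, 2.14%, 3.7% and 7.97% lower). The largest fall was that of Brdt, the germ cell BET gene, from 2702 ± 268 CPM at 2C to 104 ± 7.72 CPM at 4C (change -4.68), and the largest rise that of Cdk2ap1, a NuRD-associated gene, from 3.62 ± 0.826 CPM in zygotes to 123.5 ± 20.8 CPM at 2C (change 4.76; SD, n = 4). In the gradients 19 of 57 were heavy and 4 light in MII (background 12.7% and 6.81%), 17 of 60 heavy and 1 light in zygotes (13.2% and 5.23%), and 5 of 61 heavy and 15 light in blastocysts (9.96% and 11.8%).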

How the data were processed

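Transcriptome pools (32 libraries) and gradient fractions (240 libraries) of mouse oocytes and embryos were amplified with the Smart-seq2 v4 kit and sequenced as paired reads on the HiSeq X, per the labels' protocols. The submitters' processing notes name Trim Galore 0.6.7, FastQC, HISAT2 2.2.1, featureCounts 2.0.1, edgeR and the GRCm39 build, and no spike-in or strand setting is given in the sources used here. The authors deposited 1 table of CPM per gene symbol. Its columns sum to between 0.791 and 0.989 M once 76 groups of identical rows (159 symbols, none of them members) are reduced to 1 row each, leaving 15771; with the repeats, 9 deposited columns sum to more than the limit of a CPM scale and were recorded as a signal on the authors' CPM scale. Each column was a whole multiple of 1 read within 0.05 for 100% of its values, so reads could be recovered.

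Columns E to H of the 2C transcriptomes, whose letters differ from the A to D of the titles, were used as a group without letters. The genes and lists were chosen with earlier results of these data known. The text names catalytic ATPase and BET genes over all stages and, for each comparison, the 3 called members with the largest rise and the 3 with the largest fall; other members are named for their place in a complex, some after their values were seen. Results of 1 member are not reported here; it stays in the counts and medians over members.

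Tests used limma 3.58.1 in R 4.3.3 on log2(CPM + 1), with a trended prior and Benjamini-Hochberg adjustment over all genes that reached 1 CPM in a number of samples equal to the smallest group. A change on that scale understates that of low genes. All 32 transcriptomes shared 1 fit; gradient fits held only the stages compared. Heavy and light sides come from the same gradients, and their deviations correlated across genes with r between 0.0272 and 0.271. edgeR 4.0.16 on recovered reads, other pseudocounts, filters, scalings, fraction limits and left-out replicates were alternatives. On simulated counts the transcriptome test for 2C to 4C recovered 33% of genes changed 2-fold and 95% of those changed 4-fold. The heavy side test recovered 17% of those changed 4-fold from GV to MII and 0% from 2C to 4C. Each simulation changed 100 genes per fold among 14642 in the transcriptome and 11516 or 8390 on the heavy side, a smaller share than was called at these steps. A 2-fold change also lies at or under the threshold of 1. These rates therefore do not give the power of the tests above. Reads carry no molecular identifiers, so depth limits counting error only.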

Additional observations from a re-analysis of the deposited data

Results flagged for a closer look

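In 19 of 222 groups of 4 transcriptome libraries tested over the genes named across stages, 1 library stood apart from the other 3 relative to the range of its group (Dixon's test). Chance gives about 1 in 20 such groups. The distance in CPM can be small, as for Chd7 at 2C, with 63.2 CPM beside 59.8 CPM in the nearest library. Of the 19 flagged libraries, 3 were lettered A, 6 B, 2 C and 4 D, and 3 were E and 1 H among those of 2C. In GV, Chd8 reached 43.2 CPM in library A, and Smarcal1 56.5 CPM in library D. In zygotes Brd2 was low in library A (19.6 CPM), Chd4 was low in library B (31.4 CPM), and Mta2 had its only reads in library C (0.175 CPM). At 2C, library E was high for Brd2 (50.9 CPM) and Smarcb1 (41.0 CPM) and low for Brd3 (16.9 CPM), and library H was high for Chd7 (63.2 CPM).

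At 4C, Brd3 reached 240.2 CPM in library B, Chd3 4.61 CPM in library C and Mta1 1.81 CPM in library A. At 8C, library B was high for Arid4b (65.2 CPM), Chd1 (235 CPM) and Mta1 (2.37 CPM) and low for Smarcd1 (2.77 CPM), and library D was high for Chd9 (7.96 CPM). In blastocysts library D was high for Chd4 (149 CPM) and Ino80e (99.7 CPM).

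The heavy minus light difference on the log2 scale differed between MII oocytes and blastocysts in 24 members by the interaction test. Values are given for members reported by name. The blastocyst value was lower by the following amounts: -5.82 in Arid2, -5.03 in Baz1b, -4.65 in Chd8, -3.72 in Arid1a, -3.42 in Arid4b, -3.14 in Chd4, -3.13 in Chd7, -3.01 in Brd8, -2.97 in Baz1a and -2.95 in Smarcc1. It was also lower in Smarca5 (-2.93), Brd7 (-2.68), Baz2a (-2.45), Brd1 (-2.21), Baz2b (-2.15), Arid4a (-2.11), Ino80 (-2.09), Chd9 (-2.03) and Smarcad1 (-1.48). It was higher in Smarcd2 (1.72), Mta1 (2.17), Smarcb1 (2.56) and Actl6a (2.79). The cause was not tested.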

How the results depend on the processing

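Of 164 recomputed counts of called members that left no replicate out, 50 moved by over 1.5 times. In transcriptomes, GV to MII (19) gave 31 with quantile normalization and 31 with edgeR, MII to zygote (7) gave 3 and 8C to morula (3) gave 1 with quantile normalization, and 4C to 8C (1) gave 2 with a pseudocount of 0.1 and 0 with edgeR, with only those stages in the fit or with the replicate letters as a block. Estimating the spread from all 8 stages, which brings in the variable 2C to 8C gradients, moved the most. The heavy side then gave 1, 0, 9, 12, 3 and 1 from GV to MII up to 8C to morula. Heavy against light gave 0 in GV, zygotes and blastocysts, 2 in MII, 11 in 2C, 8 in 4C and 1 in morulae. Heavy beyond transcriptome gave 1, 0, 18, 8 and 1 (GV to MII, MII to zygote, 2C to 4C, 4C to 8C, morula to blastocyst), and the difference between MII and blastocyst gave 5.

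For the heavy side, quantile normalization gave 14 from GV to MII, 1 from zygote to 2C and 1 from 8C to morula. No filter gave 1 from MII to zygote, 2 from zygote to 2C, 2 from 2C to 4C and 1 from 8C to morula, where a pseudocount of 0.1 or fractions 7 to 10 also gave 1. For heavy against light, no filter gave 0 in GV and 2 in morulae, fractions 7 to 10 against 2 to 5 gave 16 in GV and 2 in 2C, and a light side of fractions 2 to 5 gave 15 in GV, 1 in 2C, 2 in morulae and 9 in blastocysts. In 2C a pseudocount of 0.1 gave 2 and quantile normalization 1. For heavy beyond transcriptome, morula to blastocyst gave 5 with a pseudocount of 0.1. Brd8 in morulae changed sign, to 0.41 with fractions 7 to 10 against 2 to 5 and to 0.23 with a light side of fractions 2 to 5. The cause of these moves was not tested.

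Whether same letters pair samples of different stages is not given in the sources used here. Deviations of same-lettered samples correlated with r between -0.21 and 0.18, which cannot decide it. With the letters as a replicate block the heavy side gave 2 from zygote to 2C and 0 from 8C to morula; within stages the gradient as a block gave 4 in GV. The transcriptome count from 4C to 8C was 0 with it, as given above. The block moved no count other than these 4 by over 1.5 times.

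Leaving out 1 replicate at a time, transcriptome counts ranged from 16 to 20, 3 to 10, 10 to 14, 33 to 36, 0 to 1, 2 to 4 and 5 to 7 over the 7 steps in order. Heavy side counts ranged from 4 to 6, 0 to 2, 0 to 4 and 0 to 3 and were 0 at the last 3 steps. Heavy against light ranged from 10 to 11 in MII, 7 to 11 in zygotes, 0 to 1 in morulae and 9 to 11 in blastocysts, and was 0 in GV, 2C, 4C and 8C. Heavy beyond transcriptome ranged from 5 to 9, 2 to 5, 13 to 14, 9 to 11, 0 to 3, 1 to 3 and 2 to 6, and the difference between MII and blastocyst from 12 to 15. Of 101 changes of single named members, 38 were called under every alternative run; of 921 recomputed values 220 were not called or changed sign, 2 of them by sign. Depth limits the 15 fractions under 1 M reads most, and low members such as Dpf1, Smarcd3 and Mta2 before 2C rest on few reads.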
